A study of Danio rerio with 2 samples.

Results

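The genes described here build the lysosome, the acidic compartment in which cells digest proteins, lipids and sugars. They encode the vacuolar proton pump, the cathepsins, other hydrolases and membrane proteins. Members were chosen by the gene symbol of the platform annotation. Symbols starting with atp6v or atp6ap gave the pump genes, and symbols starting with cts and a letter gave the cathepsins. A further 14 names of hydrolases and membrane proteins were sought, of which 5 had a probe set under that exact symbol (lgmn, ppt1, lamp2, npc1 and psap). Together these gave 33 of 8793 genes with a single symbol, measured by 36 probe sets. The other 9 names, from hexa to naga, are not analysed here.

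Adult zebrafish were operated on to remove about 20% of the ventricle at its apex, and were then exposed to atropine, a blocker of muscarinic acetylcholine receptors, or to water. Whole hearts were taken 24 hours later. The atropine group and the water group were each 1 pool of 15 hearts measured on 1 Affymetrix array, so both groups were amputated and an uninjured heart is not part of the comparison. With 1 array per group there is no replicate check and no p-value, and every difference describes these 2 pools. The labels name neither the strain nor the dose of atropine. The tissue label was matched by cardiomyocyte markers such as myl7, an atrial and ventricular myosin light chain, at 13.21 in atropine-exposed and 13.23 in water-exposed hearts (log2 values). Some other cardiomyocyte markers were less level, such as tnnc1a, at 8.13 in atropine and 9.54 in water, and tbx5a, at 6.36 in atropine and 5.12 in water.

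A probe set's value is a log2 expression value, and a difference is log2(atropine) minus log2(water), positive where atropine was higher. Where a gene had several probe sets, the one with the highest mean of both arrays stood for it. Genes entered the comparison when at least 1 of their 2 values reached 4.05, the median of all values, as 30 of the 33 members and 5294 of all named genes did. Values of different probe sets cannot be ranked against each other as amounts of RNA, because probe sets differ in brightness. In bulk hearts fewer cells of a type and less RNA per cell cannot be told apart. Probe sets of the same gene give a sense of measurement error within an array pair: over 648 genes with at least 2 of them, their differences scattered with an SD of 0.15 per probe set. That spread does not include variation between pools of fish.

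Lysosomes are acidified by the vacuolar proton pump, in which a cytosolic V1 sector hydrolyses ATP and a membrane-embedded V0 sector carries protons. Cathepsins are proteases that mature in this acid. Most are cysteine proteases, while cathepsin D is an aspartic and cathepsin A a serine protease. In a wounded heart, macrophages rich in lysosomes clear dead cells and matrix, and most other cell types also keep lysosomes of its own.

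Most proton pump genes were slightly higher in atropine-exposed hearts. Cathepsin, hydrolase and membrane genes went both ways, with directions counted from 0 as deposited. The median of all named genes was -0.01 as deposited and 0.47 when the arrays were scaled to their polyadenylated spike-ins. Under that scaling atp6v1b2, ctsz, ctsk, ctss2.2, lgmn and psap turned to values above 0 but below that median. Every member stayed in the same order. Of the 30 genes compared, 23 differed by more than 0 and 7 by less. Among all 5294 named genes 47.8% were above 0 and 52% below. The median of the 30 was 0.14. Of the 30, 3 were at least 1.5-fold higher (ppt1, ctsl.1 and ctsba), against 1.87% of all named genes. At least 1.5-fold lower were 0, against 2.12%. The gene ctsl.1 passed the filter through its atropine value alone, at 4.70 in atropine and 3.90 in water. With an offset on the linear scale, or with the mean of probe sets, 2 genes were at least 1.5-fold higher, ctsl.1 not among them. As deposited, 8 of the 30 were at least 1.2-fold higher, where the share of all named genes was 10.5%. At least 1.2-fold lower were 4, where the share was 13.9%. None of the 30 reached 2-fold, which 0.397% of all named genes did in the higher and 0.359% in the lower direction.

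**Figure D1:**
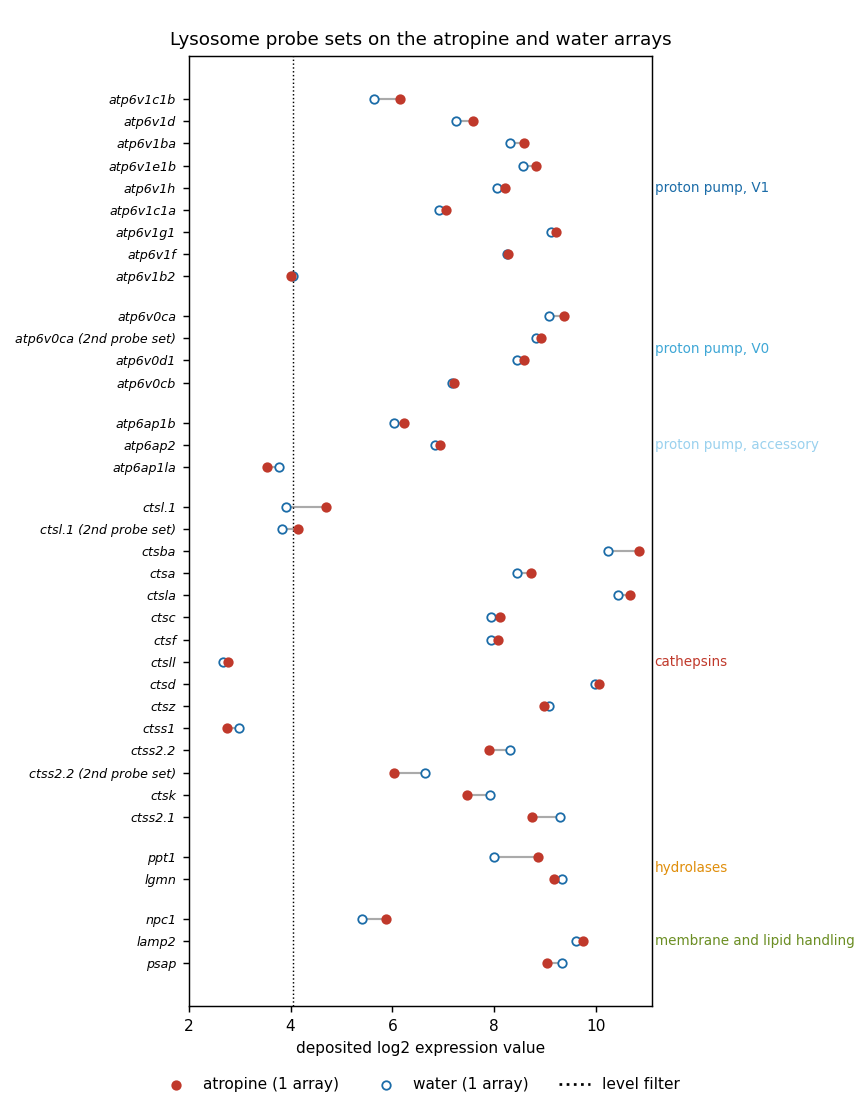
Deposited log2 expression values of the 36 lysosome probe sets, 1 row each, with the atropine array as filled red points and the water array as open blue points. Most pump rows have the red point to the right of the blue one by a small distance, ppt1, ctsl.1 and ctsba have it farther right, and ctss2.1, ctss2.2 and ctsk have it to the left.

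The proton pump genes leaned one way by small amounts. Of the 14 that passed the level filter 13 were above 0, with a median of 0.15 and a range from -0.05 to 0.51. None reached 1.5-fold. Of these 14, 9 lay above 0.13, the 75th percentile of all named genes, and 0 lay below the 25th, at -0.16. Singly, 7 of the 14 differed by more than 0.15, the scatter between probe sets of 1 gene.

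In the V1 sector, atp6v1c1b had the largest difference, with 6.14 in atropine and 5.63 in water (1.42-fold higher). It encodes a C subunit, which helps hold V1 on V0 and leaves when the pump comes apart. Its paralog atp6v1c1a stood at 7.06 in atropine and 6.92 in water, a difference of 0.14. The central stalk gene atp6v1d had 7.58 in atropine and 7.24 in water (0.34), whereas atp6v1f, which encodes the other subunit of the stalk, had 8.27 in atropine and 8.25 in water (0.02). The peripheral stalk genes were atp6v1e1b, at 8.82 in atropine and 8.57 in water, and atp6v1g1, at 9.21 in atropine and 9.12 in water. The regulatory subunit gene atp6v1h had 8.22 in atropine and 8.06 in water.

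Both genes for the B subunit, which forms the ATP-hydrolysing head together with A, had a probe set. The first, atp6v1ba, had 8.58 in atropine and 8.31 in water (0.26). The second, atp6v1b2, had 4.01 in atropine and 4.05 in water, so it only just met the filter. Its difference of -0.05, the single one below 0 among the pump genes compared, carries little information. Genes for the A subunit of V1 and the a subunit of V0 had no member probe set and are not analysed here. The gene atpv0e2, named for V0 but spelt outside the choice of members, differed by -0.05 at a mean level of 4.88.

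In the V0 sector the proteolipid gene atp6v0ca, whose product forms the rotating ring that carries protons, was measured by 2 probe sets. Its brighter probe set had 9.37 in atropine and 9.08 in water (0.29), and the other had 8.93 in atropine and 8.82 in water (0.11). Both leaned the same way, by amounts that differed about as much as probe sets of 1 gene usually do. The paralog atp6v0cb had 7.20 in atropine and 7.17 in water. The coupling subunit gene atp6v0d1 had 8.59 in atropine and 8.46 in water.

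Among accessory genes, atp6ap1b had 6.22 in atropine and 6.04 in water. Its mammalian counterpart encodes Ac45, a pump assembly factor. The gene atp6ap2, known in mammals as the prorenin receptor and also a pump partner, had 6.94 in atropine and 6.83 in water. The remaining accessory gene, atp6ap1la, stayed below the filter at 3.53 in atropine and 3.77 in water, and nothing is read from it.

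**Figure D2:**
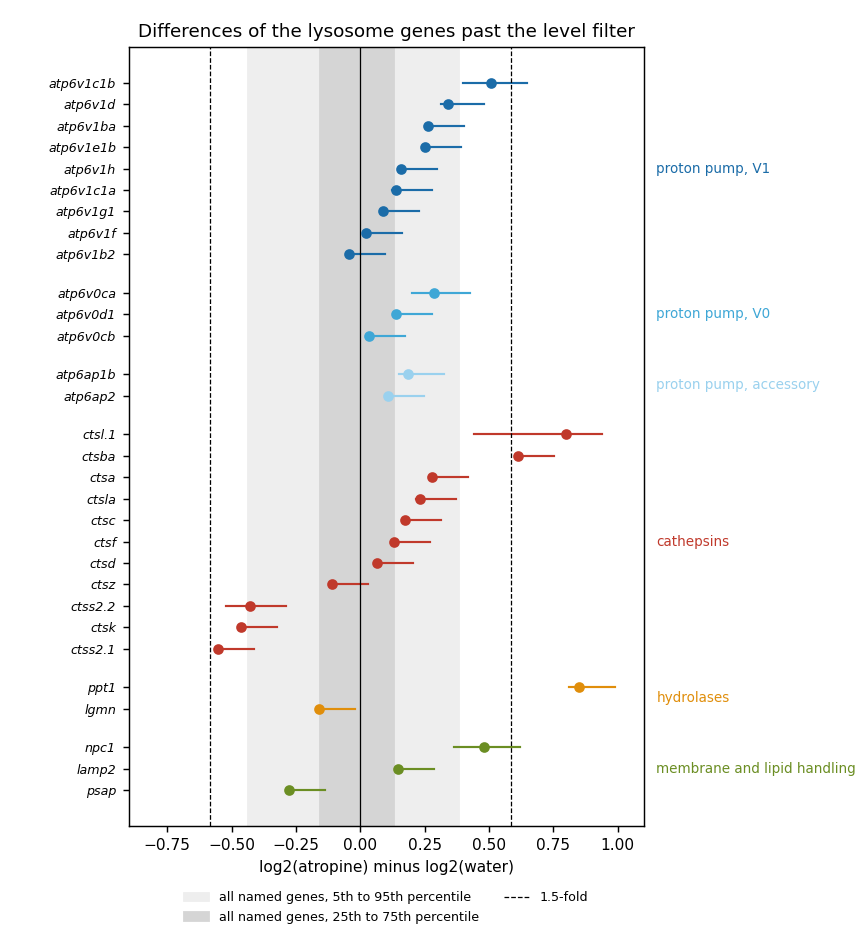
Difference log2(atropine) minus log2(water) of the 30 lysosome genes past the level filter, grouped by role, with a point for the value as deposited and a line for its range over the alternative processing steps other than the spike-in scaling. Grey bands give the spread of all named genes. The pump points sit from -0.05 to 0.51, and the cathepsins reach from -0.55 for ctss2.1 to 0.80 for ctsl.1.

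Cathepsin genes spread in both directions. The 11 past the filter had a median of 0.13 and an SD of 0.43 across genes, beside 0.14 across the pump genes and 0.27 across all named genes. Above 0 were 7 and below it 4. The highest, ctsl.1 (0.80), passed the filter through its atropine value alone. It counts in the SD and among the 7, and the SD was not computed without it. With the filter at the upper quartile, which ctsl.1 did not pass, the median of the 10 cathepsin genes left was 0.10. Cathepsins A, B, C, D, F and L were on the higher side, and cathepsins S, K and Z on the lower.

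The cathepsin B gene ctsba had 10.84 in atropine and 10.23 in water, 1.53-fold higher, and ranked 85 from the top among the 5294 genes. Cathepsin L was measured through ctsla, at 10.67 in atropine and 10.43 in water (0.23), and through the related gene ctsl.1. The brighter ctsl.1 probe set had 4.70 in atropine and 3.90 in water (1.74-fold higher), and the other had 4.14 in atropine and 3.83 in water (1.24-fold higher). Both water values of ctsl.1 lay below the filter, and the difference was 0.44 with an offset of 16 added on the linear scale and 0.55 with the mean of both probe sets, each under 1.5-fold. Another cathepsin L relative, ctsll, stood at 2.77 in atropine and 2.67 in water and was not compared.

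Cathepsin A, a carboxypeptidase that also shields other lysosomal enzymes from breakdown, gave 8.72 in atropine and 8.44 in water (0.28). The gene ctsc, whose product in mammals trims and so activates granule proteases of leukocytes, had 8.11 in atropine and 7.93 in water (0.17). The gene ctsf had 8.07 in atropine and 7.94 in water (0.13). For ctsd, the aspartic protease, the values were 10.05 in atropine and 9.99 in water. Apart from ctsba and ctsl.1, the higher cathepsins were thus within 0.28, and ctsf and ctsd differed by less than the scatter between probe sets.

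The lower cathepsins were ctss2.1, ctsk and ctss2.2. Under the spike-in scaling ctsk and ctss2.2 came to 0.02 and 0.05, where the median of all named genes was 0.47. Cathepsin S of mammals cuts the invariant chain, which guides MHC class II proteins. Its gene ctss2.1 had 8.74 in atropine and 9.30 in water, 1.47-fold lower, and ranked 126 from the bottom of the 5294 genes. The brighter probe set of ctss2.2 had 7.89 in atropine and 8.32 in water (1.35-fold lower), and its other probe set had 6.03 in atropine and 6.65 in water (1.53-fold lower). Cathepsin K, a collagen-degrading protease of osteoclasts in mammals, had 7.46 in atropine and 7.92 in water (1.38-fold lower). All 4 probe sets of these genes were thus lower in atropine by 0.43 to 0.62. The remaining cathepsin S gene, ctss1, stood at 2.76 in atropine and 2.99 in water, below the filter. Cathepsin Z, another carboxypeptidase, had 8.97 in atropine and 9.08 in water (-0.11). Its difference was 0.03 under the scaling to cardiomyocyte genes, where the median of all named genes was 0.13.

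These 3 genes are neighbours. In the RefSeq gene table of the GRCz12tu assembly ctsk, ctss2.1 and ctss2.2 follow each other on chromosome 16 with 0 protein-coding genes between neighbours. If the tandem genes ctss2.1 and ctss2.2 share near-identical stretches, the same probes could read both. Their sequences were not compared, so their separate values are uncertain. The 2 highest cathepsins, ctsba and ctsl.1, lie on chromosome 17 with 86 protein-coding genes between them.

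Leukocyte markers differed in the direction of the lower cathepsins on the same arrays. Of 16 macrophage markers past the filter, out of 18 with a probe set, 14 were below 0 and 11 at least 1.2-fold lower, with a median of -0.41. Among all 5294 named genes 52% were below 0, 47.8% above 0 and 13.9% at least 1.2-fold lower. Summed on the linear scale the 16 macrophage markers came to 3233 in atropine and 4731 in water. The invariant chain gene cd74a, at 7.79 in atropine and 9.41 in water, was lowest (3.09-fold lower). Next came cd74b, also an invariant chain gene, at 7.35 in atropine and 8.66 in water (2.49-fold lower). These genes weighed most in the gap between the macrophage sums. The receptor gene csf1ra was at 4.31 in atropine and 4.20 in water, close to the filter. Of 10 neutrophil markers, 8 were below 0, with a median of -0.55 and linear sums of 1910 in atropine and 2670 in water. The part of these cells in the cathepsin S and K values was not tested. Red blood cell markers went with the higher side: 11 of 14 were above 0, with a median of 0.65. Their linear sums were 17778 in atropine and 13426 in water, in which the bright globin genes hbaa1 and hbba2 weighed most. The gene hbaa1 had 13.45 in atropine and 13.25 in water, and hbba2 had 11.52 in atropine and 10.18 in water. The part of red blood cells in the pump and cathepsin B values was not tested either. Of 21 cardiomyocyte markers 13 were below 0 and 8 above, with a median of -0.14 and a range from -1.41 to 1.24.

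**Figure D3:**
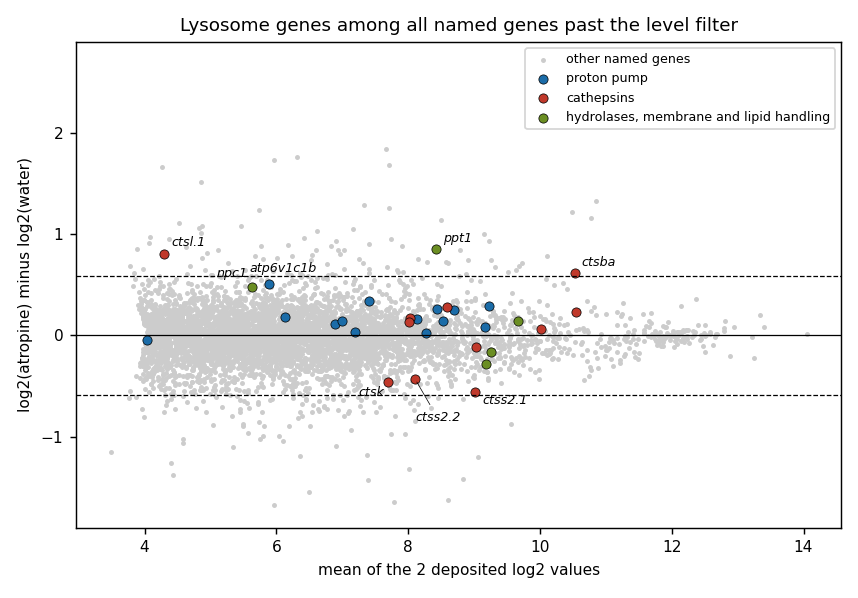
Difference log2(atropine) minus log2(water) against the mean of the 2 log2 values for the 5294 named genes past the level filter, with lysosome genes in colour and 1.5-fold as dashed lines. Lysosome genes ppt1, ctsl.1 and ctsba lie above the upper line, and no lysosome gene lies below the lower one, to which ctss2.1 at -0.55 comes nearest.

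The hydrolase and membrane genes held the largest difference of the whole set. The gene ppt1 encodes palmitoyl-protein thioesterase, which strips fatty acids from proteins in the lysosome and is lost in a childhood form of neuronal ceroid lipofuscinosis. It had 8.85 in atropine and 8.001 in water, 1.80-fold higher, and ranked 36 from the top of the 5294 genes. The legumain gene lgmn, whose product cuts after asparagine and helps mature cathepsins, had 9.17 in atropine and 9.33 in water (-0.16). Its difference was 0.32 under the spike-in scaling, where the median of all named genes was 0.47.

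Genes for membrane proteins and lipid handling were split. The cholesterol exporter gene npc1 had 5.88 in atropine and 5.40 in water (1.40-fold higher). The membrane glycoprotein gene lamp2 had 9.74 in atropine and 9.60 in water (0.14). The gene psap, which encodes the precursor of the saposins that present sphingolipids to their hydrolases, had 9.04 in atropine and 9.32 in water (1.21-fold lower). Its difference was 0.20 under the spike-in scaling, where the median of all named genes was 0.47. Over the 5 genes outside pump and cathepsins the median was 0.14, which with so few genes is the value of lamp2.

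Lists of further lysosomal genes, outside the choice of members, had medians nearer 0. Of 10 other hydrolase genes past the filter 7 were above 0, with a median of 0.08, and none was 1.5-fold apart. The phospholipase gene pla2g15 was highest (0.32) and galcb, a galactosylceramidase, lowest (-0.28). Of 12 other membrane protein genes 8 were above 0, with a median of 0.04. Here the scavenger receptor paralogs scarb2c and scarb2a, related to a mammalian carrier of glucocerebrosidase, stood at opposite ends. The gene scarb2c had 7.09 in atropine and 6.70 in water (0.39), and scarb2a had 4.98 in atropine and 5.49 in water (-0.51).

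Among regulators of lysosomal genes, flcn stood out. Its product is folliculin. Together with its partner FNIP, folliculin acts on Rag GTPases at the lysosome and so on the TFE transcription factors that drive lysosomal genes. RNA values do not give the direction of that action, and TFE activity was not measured. The gene flcn had 7.36 in atropine and 6.52 in water, 1.80-fold higher. The family member tfe3a had 6.11 in atropine and 5.74 in water (1.29-fold higher), and the partner gene fnip1 had 5.52 in atropine and 5.18 in water (1.26-fold higher). The lowest of the list was tsc1a, at 5.97 in atropine and 6.47 in water (1.42-fold lower), which encodes an inhibitor of mTORC1, the kinase complex that keeps TFE factors out of the nucleus. Of the 9 genes past the filter 7 were above 0, with a median of 0.18 and flcn the single one at least 1.5-fold apart. The shares of all named genes were 47.8% above 0, and 1.87% higher and 2.12% lower at 1.5-fold.

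Autophagy delivers cell contents to the lysosome. Of 22 autophagy genes 16 were above 0, with a median of 0.07, and none was 1.5-fold apart. The shares of all named genes were 47.8% above 0, and 1.87% higher and 2.12% lower at 1.5-fold. At such shares a count of none says little about a list of this size. The receptor gene tax1bp1b was highest, at 9.79 in atropine and 9.37 in water (0.42), and vmp1, which helps form autophagosomes, lowest, at 7.45 in atropine and 7.99 in water (-0.53). Genes that sort enzymes to the lysosome showed no common lean: 6 of 15 were above 0, with a median of -0.05. The lowest of them was the progranulin gene grna (-0.47), while grnb on the same list differed by 0.15. Outside the list, the genes grna.1 and grnas differed by -0.02 and 0.03. The 3 protease inhibitor genes past the filter had a median of -0.03, with 1 above 0 and 2 below. Of these, cst3, encoding the cathepsin inhibitor cystatin C, had 5.77 in atropine and 6.12 in water (1.27-fold lower), while serpinb1l3 differed by -0.03 and cst14b.1 by 0.13.

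**Figure D4:**
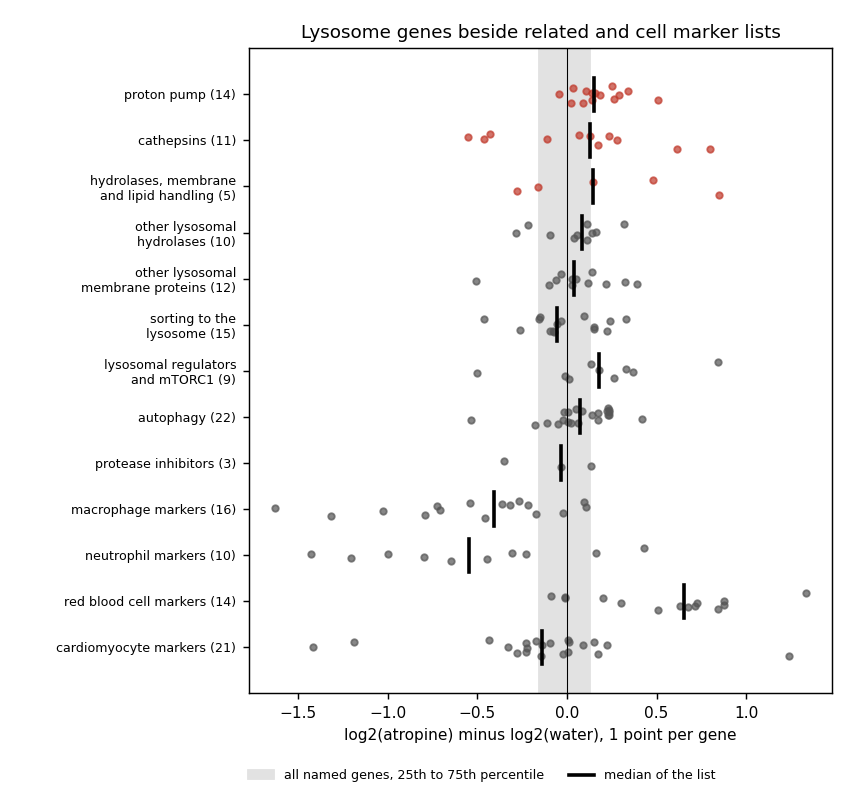
Difference log2(atropine) minus log2(water), 1 point per gene past the level filter, for the lysosome genes in red and for related and cell marker lists in grey, with the number of genes in brackets and a black bar at the median. The pump points cluster just right of 0, and the cathepsins spread from -0.55 to 0.80. The medians of the macrophage, neutrophil, red blood cell and cardiomyocyte markers lie at -0.41, -0.55, 0.65 and -0.14.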

How the data were processed

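Per the labels, total RNA from pools of 15 whole hearts was labelled with an Affymetrix IVT kit and measured on 1 array per group. The deposited table holds 1 log2 value per probe set and array. That the scale is log2 was inferred from its range of 2.02 to 14.05, and no source used here says how the authors summarized and normalized intensities. The quartiles of the arrays are nearly equal, so differences are relative to other genes and cannot show whether a global shift was present. No detection calls were used.

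Of 15502 non-control probe sets 10795 had a single symbol in the platform annotation. All 33 members matched the RefSeq table by Entrez identifier, and no coordinates are given because the array names no build. Differences were taken as deposited. No test was possible, and counts are set beside the share of all named genes past the same fold. Members and lists were chosen with earlier results of these data known. Named genes are all members, and up to 3 per direction from each other list, with those of the marker lists chosen after their values were seen. Promoter motifs had been planned and were not analysed here. The calling of folds was run on simulated data with planted differences, which checks the code and not variation between pools of fish. Alternatives were other scalings, filters, an offset, probe set rules and fold thresholds. Python 3.11.15, numpy 2.4.6, pandas 2.3.3 and statsmodels 0.14.6 were used.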

Additional observations from a re-analysis of the deposited data

How the results depend on the processing

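No paired analysis was possible because each group is 1 array, and for the same reason no replicate could be left out. As deposited the median of all named genes was -0.01. Scaling to the cardiomyocyte genes moved it to 0.13 and scaling to the polyadenylated spike-ins, which were lower on the atropine array by a median of 0.48, moved it to 0.47. These shifts add the same amount to every gene and leave the order of genes as it is. Under the cardiomyocyte scaling the medians were 0.28 for all lysosome genes, 0.29 for the pump, 0.27 for the cathepsins and 0.28 for the other 5, with 5 genes at least 1.5-fold higher. Under the spike-in scaling they were 0.62, 0.63, 0.61 and 0.62, with 19 genes at least 1.5-fold higher. The counts of 5 and 19 follow a shift given to every named gene. The share of all named genes past 1.5-fold was not computed under these scalings, so nothing about lysosome genes is read from either count. Under the spike-in scaling ctsk (0.02) and ctss2.2 (0.05) stood near 0 while ctss2.1 remained lower (-0.08). Signs of atp6v1b2 and ctsz turned under both scalings, and those of ctsk, ctss2.2, lgmn and psap under the spike-in scaling. Quantile normalization and the loess fit put the median of all lysosome genes at 0.17 each. With the filter at the upper quartile the median of the hydrolase and membrane genes, then 4, was -0.00788, since npc1 no longer passed. At 2-fold 0 genes were called higher, and at 1.2-fold 8 were higher and 4 lower. With the offset or the mean of probe sets 2 genes were at least 1.5-fold higher, ctsl.1 no longer among them. All 36 member probe sets carry the plain suffix, so leaving out cross-hybridizing ones changed only the genes they are set beside. Low values such as those of ctsl.1 and atp6v1b2 limit what can be read from them.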

Other observations

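Zebrafish copies of LAMP1 and NPC2 carry suffixed symbols and so fell outside the choice of members. The gene lamp1a, for a major membrane glycoprotein of the lysosome, had 8.74 in atropine and 8.26 in water, a difference of 0.48, while its paralog lamp1b had 7.31 in atropine and 7.28 in water. The gene npc2.1, whose product hands cholesterol to NPC1 in the lysosome, had 8.40 in atropine and 8.62 in water (-0.22). It thus lay on the other side of 0 from npc1, at 0.48.

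Few genes around the cathepsin K and S cluster could be compared. Among 10 protein-coding genes on each side of it in the GRCz12tu gene table, 4 had a value past the filter. The transcription factor gene mef2d differed by 0.05, the survival factor gene mcl1b by -0.03, the tropomodulin gene tmod4 by 0.88 and tnfaip8l2b by -0.31. The differences of mef2d and mcl1b were within 0.15, the scatter between probe sets of 1 gene. The values of tnfaip8l2b, 4.18 in atropine and 4.48 in water, were near the filter. The gene tmod4 was also on the list of red blood cell markers. This look at neighbours was chosen after the values of the cluster were seen.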
